A study of Mus musculus with 3 samples.

Results

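Oxidative phosphorylation genes were read in the single-cell transcriptome of the mouse uterus at pregnancy day 7.5. They were taken by symbol from the deposited feature list: every symbol starting with mt-Nd, mt-Co, mt-Atp, mt-Cyt, Nduf, Uqcr, Atp5 or Cox4 to Cox8, together with Sdha, Sdhb, Sdhc and Sdhd. This gave 107 of 32287 features, of which 13 are encoded by mitochondrial DNA and 94 by nuclear genes. The nuclear-encoded genes held 37 complex I subunits, 8 complex I assembly factors (the Ndufaf genes), 4 complex II, 8 complex III, 20 complex IV and 17 complex V genes. Ndufa4 and Ndufa4l2 were counted with complex IV, where the Ndufa4 protein sits, although their names place them in complex I. The symbol rule also took in Ndufb1-ps, which the annotation lists as a non-coding RNA, and it left out Cyc1 and Cycs, the cytochromes that carry electrons through complex III and on to complex IV. 105 of the 107 genes had at least 1 UMI (unique molecular identifier, a count of 1 captured transcript) among the kept cells. Cox7b2 and Cox8c had 0 UMIs there. At least 50 UMIs were found for 13 of the 13 mitochondrial-encoded and 88 of the 94 nuclear-encoded genes.

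The series profiles the cells of the early pregnant uterus and names 3 single-cell samples. The 1 analysed here carries no genotype or strain in its labels. It came from females reared to 8 weeks of age and mated with stud males; on day 7.5 of pregnancy the whole uterus was taken, dissociated with trypsin and loaded for 10x 3′ chemistry (v3.1). The remaining samples, Prl8a2icre/+ Sun1-GFPLsL/+ and Sun1-GFPLsL/+, were not analysed here. The number of animals behind the library is not given. With 1 library there was no replicate, so no test was run between cell groups and every comparison describes this library. Intervals are exact at the 95% level and reflect the number of UMIs or cells counted, not variation between animals.

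Oxidative phosphorylation makes ATP in the inner mitochondrial membrane. Complex I takes electrons from NADH, complex II takes them from succinate, complex III passes them to cytochrome c, and complex IV hands them to oxygen, while the protons pumped on the way drive ATP synthase, complex V. Complex II is built from nuclear genes alone, and the other complexes combine nuclear-encoded subunits with a few encoded by mitochondrial DNA, whose RNA is made by a separate polymerase within the organelle. In the pregnant mouse uterus the stroma around the embryo differentiates into decidua, and uterine natural killer cells fill with granules.

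Of 2775 barcodes, 1813 were kept, with at least 500 genes, at most 20% mitochondrial UMIs and no doublet call, at a median of 4506 UMIs. Clustering without any of the 107 genes gave 21 clusters, and 20 of them fell into 10 groups named from marker genes. Rgs5, a pericyte marker, was at 16896 UMIs per 1000000 nuclear-gene UMIs in pericyte-like cells and at most 48.6 in the other named groups; these cells also carried the smooth muscle genes Acta2 (1255) and Myh11 (493). Cluster 13 (36 cells, with H19, Hand1 and Lin28a among its leading genes) scored highest on the natural killer and innate lymphoid list. It stayed unnamed because it was shallow and had no marker of that list among its leading genes. Decidual cluster 16 had Rbp4, from the endoderm list, among its leading genes, and natural killer cluster 2 had Itgax, from the phagocyte list, so both are also given by number. Phagocyte cluster 3 (149 cells) had S100a8 and S100a9, from the neutrophil list, and mesothelial cluster 11 had Dcn, from the stroma list. The stroma markers summed to 18267 in mesothelium, against 7208 in decidual and 7061 in undifferentiated stroma. Clusters 5, 8 and 16 held over 100000 UMIs of Malat1, a long RNA kept in the nucleus, per 1000000 nuclear-gene UMIs.

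All levels below are UMIs per 1000000 nuclear-gene UMIs, the latter being all UMIs except those of mitochondrial genes. Over the 10 groups the summed nuclear-encoded genes ranged 2.41-fold and the summed mitochondrial-encoded genes 2.803-fold. Decidual stroma-like cells (150 cells) stood highest on both as pooled sums, at 22099 (21846 to 22354) for the nuclear-encoded and 101411 (100869 to 101955) for the mitochondrial-encoded sum. Natural killer (NK) and innate lymphoid-like cells (314 cells) came next for the nuclear-encoded sum at 20575, followed by mesothelium-like (18091), epithelium-like (17592), endothelium-like (16690.4), pericyte-like (15444), phagocyte-like (15089.8) and T cell-like cells (12469). Undifferentiated stroma-like cells (416 cells, 9572) and B cell-like cells (23 cells, 9164) stood lowest. Counting intervals overlapped between mesothelium and epithelium, between pericytes and phagocytes, and between undifferentiated stroma and B cells, so these neighbours cannot be ordered. Pooled sums weight cells by their depth, and the order of the nuclear-encoded level changed when each cell counted alike. As a mean over cells mesothelium was highest at 16636, next to 16446 in decidual stroma. The median cell of decidual stroma, at 11286, lay below those of mesothelium (17066), NK cells (13849), epithelium (13363) and endothelium (12563). For the mitochondrial-encoded level decidual stroma was highest both as a mean over cells (131155) and by the median cell (135376).

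The order of the mitochondrial-encoded sum was another. After decidual stroma came pericyte-like (72023), B cell-like (58220.1), epithelium-like (53651), T cell-like (48087), endothelium-like (45782) and undifferentiated stroma-like cells (45186). NK (40640), mesothelium-like (38411) and phagocyte-like cells (36175) were lowest. The intervals of endothelium and undifferentiated stroma overlapped. As a mean over cells NK cells, at 64950.3, came after 4 of the other groups and lay above T cells (62377), phagocytes (56895), undifferentiated stroma (56509), endothelium (54631) and mesothelium (47019). In the pooled counts NK cells had 1.98 mitochondrial-encoded UMIs for each nuclear-encoded one, against 4.72 in undifferentiated stroma, 4.59 in decidual stroma and 6.35 in B cells. In the unnamed cluster 13 this ratio was 0.624, from sums of 24284 nuclear-encoded and 15152 mitochondrial-encoded.

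**Figure D1:**
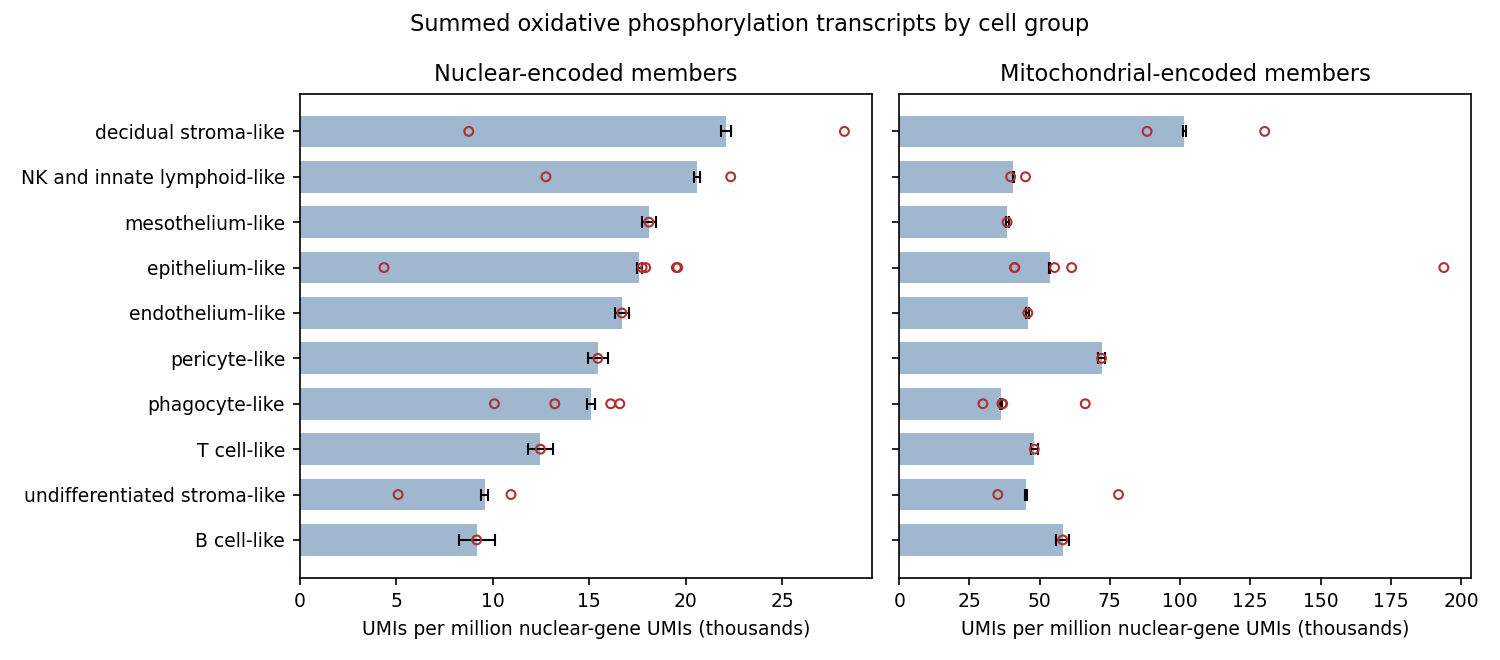
Summed nuclear-encoded (left) and mitochondrial-encoded (right) oxidative phosphorylation transcripts in the 10 named groups; the x axes give UMIs per 1000000 nuclear-gene UMIs, in units of 1000. Bars are the group value with its 95% counting interval and open circles are the clusters within the group; decidual stroma stands highest on both panels, and its clusters lie at 8756 and 28219 on the left.

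Clusters of 1 group could lie far apart. Over the 21 clusters the nuclear-encoded sum ranged 6.47-fold, from 4365 in epithelial cluster 8 to 28219 in decidual cluster 1, and the mitochondrial-encoded sum 12.8-fold, from 15152 in cluster 13 to 193898 in cluster 8. Clusters 5, 8 and 16 combined low nuclear-encoded sums (5096, 4365 and 8756) with high mitochondrial-encoded sums (78080.5, 193898 and 130107). Their Malat1 levels were 132671, 107575 and 158808, against 4967 to 79868 in the other clusters. Their ribosomal protein gene levels were 39368, 36535 and 89579, against 90270.5 to 245113 in the others. Across the 21 clusters the log2 nuclear-encoded sum had a Pearson correlation of -0.70 with log2 Malat1 and 0.79 with the ribosomal protein sum, and the mitochondrial-encoded sum one of 0.72 with Malat1. The points are clusters of 1 library with a shared denominator, and the part of Malat1 and ribosomal content in the levels was not tested. Over the 10 groups the nuclear-encoded sum had weaker correlations, -0.42 with Malat1 and 0.17 with the ribosomal protein sum. The mitochondrial-encoded sum had 0.52 with Malat1 there. With the median UMIs per cell the nuclear-encoded sum had a Pearson correlation of 0.83 over the 10 groups and 0.38 over the 21 clusters.

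**Figure D2:**
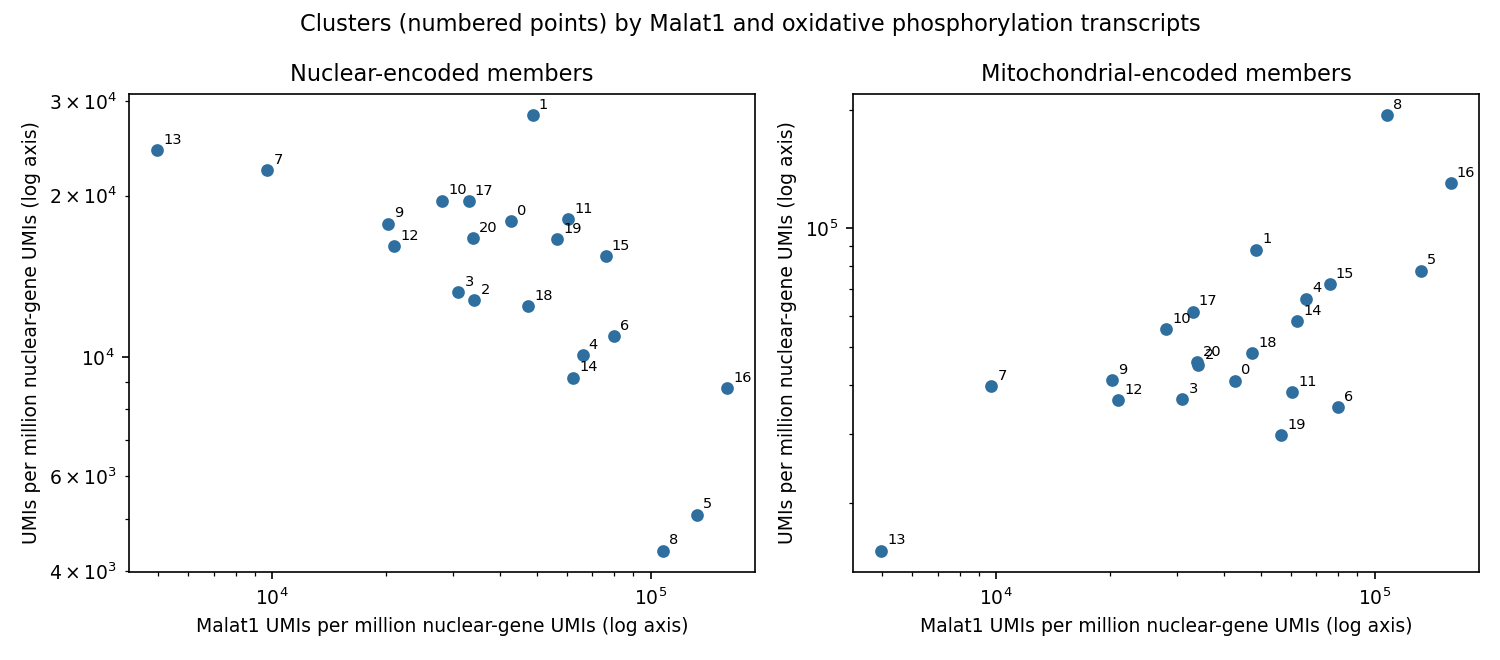
Each numbered point is 1 of the 21 clusters, by its Malat1 level (x axis, log scale) and its summed nuclear-encoded (left) or mitochondrial-encoded (right) oxidative phosphorylation level (y axis, log scale), all in UMIs per 1000000 nuclear-gene UMIs. Clusters 5, 8 and 16 lie at the highest Malat1 levels, low on the left panel and high on the right.

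The limit of 20% mitochondrial UMIs acts on the mitochondrial-encoded genes themselves, and it did not touch the groups evenly. With cells clustered under no limit, 154 of 303 decidual stroma-like cells (50.8%, 45.05 to 56.6%) and 298 of 673 epithelium-like cells (44.3%, 40.5 to 48.1%) exceeded it. NK cells had 82 of 433 above it (18.9%) and pericytes 8 of 43 (18.6%), against 0 of 420 undifferentiated stroma-like and 0 of 89 mesothelium-like cells. The median mitochondrial share per cell was then 20.2% in decidual stroma, 18.1% in epithelium and 4.296% in undifferentiated stroma. The decidual mitochondrial-encoded levels given here therefore come from the cells of that group with lower mitochondrial shares.

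**Figure D3:**
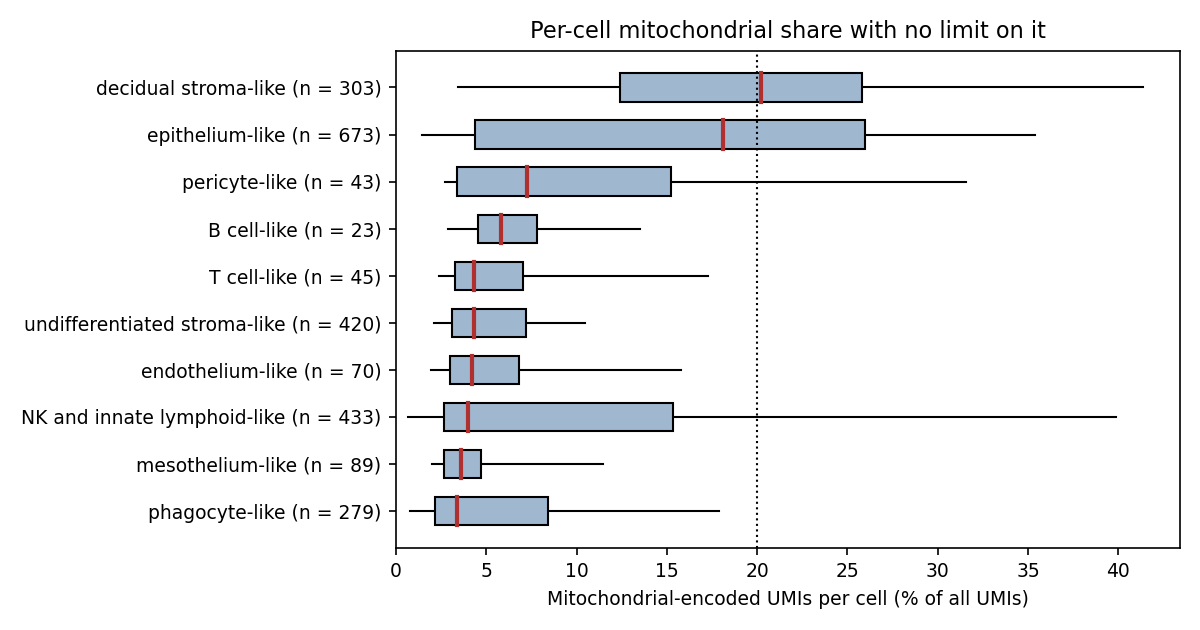
Mitochondrial UMIs as a percentage of all UMIs per cell, by group, in cells clustered with no limit on that share. Boxes span the quartiles with the median in red, lines span the 5th to 95th percentile of cells, and the dotted line marks 20%; the decidual median (20.2%) lies at that line and the undifferentiated stromal median (4.296%) far under it.

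12 of the 13 mitochondrial-encoded genes had their highest level in decidual stroma-like cells; the exception was mt-Nd6, the only one encoded on the other strand, at 223 (167 to 292) in pericytes and 212 (188 to 238) in decidual stroma, with overlapping intervals. Further down, the order of the groups differed between genes. Undifferentiated stroma was the third highest of the 10 groups for mt-Cytb and the ninth for mt-Co1 (9120.1), and NK cells the fourth for mt-Nd5 (1006) and the lowest for mt-Co3 (5690.2). mt-Co1, the catalytic subunit of complex IV, was at 20951 in decidual stroma, 15096 in B cells, 13831 in pericytes, 13192 in epithelium and between 8783 and 11498 in the other 6 groups. For mt-Cytb, the complex III subunit, decidual stroma had 8331, pericytes 6299, undifferentiated stroma 4015, and phagocytes the least at 2106. For all 13, the lowest group was phagocytes (8 genes), mesothelium (4) or NK cells (1). mt-Nd1 of complex I was at 3754 in decidual stroma, 3599.9 in pericytes and 1418 in phagocytes. mt-Atp6 of complex V was at 18692 in decidual stroma, 13098 in pericytes and 6231 in mesothelium.

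As shares of the mitochondrial-encoded UMIs of a group, most genes varied little. mt-Co1 made up 19.2% (pericytes) to 25.9% (B cells), mt-Atp6 16.2% to 19.03%, mt-Co3 14% to 17.3% and mt-Co2 12.7% to 14.5%. The shares of mt-Nd2, mt-Nd4, mt-Nd4l and mt-Atp8 also ranged under 1.5-fold. The widest ranges were those of mt-Nd6, from 0.135% in phagocytes to 0.3098% in pericytes (2.29-fold), and mt-Nd5, from 1.12% in mesothelium to 2.48% in NK cells (2.21-fold). mt-Cytb was 5.56% of the mitochondrial-encoded UMIs in epithelium and 8.88% in undifferentiated stroma, mt-Nd1 3.299% in B cells and 5.54% in mesothelium, and mt-Nd3 0.985% in endothelium and 1.53% in epithelium. Neighbouring genes overlap in the annotation by 43 bases (mt-Atp8 and mt-Atp6), 7 bases (mt-Nd4l and mt-Nd4), 1 base (mt-Atp6 and mt-Co3) and, on opposite strands, 14 bases (mt-Nd5 and mt-Nd6).

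Decidual stroma-like cells were set against undifferentiated stroma-like cells, gene by gene. The summed decidual markers separated these groups, at 4953 against 447. The summed undifferentiated markers did not, at 2060 in decidual and 2030 in undifferentiated stroma. A gene needed 50 UMIs in the pair of groups together, and it was called higher or lower where its levels differed 1.5-fold or more with a counting interval that left out 1. 13 of 13 mitochondrial-encoded genes were higher in decidual stroma, and so were 74 of the 83 nuclear-encoded genes with enough UMIs (94 in all), with 0 lower. Of all 7452 genes compared, 16.6% were higher and 29.2% lower. The nuclear-encoded sum was 22099 against 9572 (2.31 times, 2.26 to 2.36) and the mitochondrial-encoded sum 101411 against 45186 (2.24 times, 2.22 to 2.27). The median log2 ratio of the nuclear-encoded genes was 1.12, against -0.23 over all genes compared. Malat1 was at 0.903 times its level in undifferentiated stroma. The mitochondrial-encoded ratio followed the limit on mitochondrial UMIs: it was 1.55 with a limit of 10%, where 8 of 13 genes were higher, and 3.91 with none. The share of all genes called was not tallied at these limits.

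That comparison joins clusters that differed among themselves. Decidual cluster 1 (78 cells) carried the decidual genes Tdo2 and Dio3 at 3141 and 928, cluster 16 (72 cells) at 1593 and 38.5, and undifferentiated cluster 6 (238 cells) at 18.8 and 4.48. Undifferentiated cluster 5 (178 cells) held them at 38.05 and 0. Bmp2, a leading gene of cluster 1 (448), went the other way in cluster 16, at 14.4 (6 UMIs). Bmp2 was at 19.7 in cluster 6 and 35.1 in cluster 5. Over the decidual markers, the mean log2 difference from the median stromal cluster was 2.24 in cluster 1 and 0.30 in cluster 16. It was -0.51 in cluster 6 and -0.57 in cluster 5, so cluster 16 was the weaker decidual cluster by this score. Over the undifferentiated markers, the mean log2 difference from the median stromal cluster was 0.78 in cluster 6 and -0.04 in cluster 5. It was 0.36 in cluster 1 and -0.30 in cluster 16. Cluster 1 against cluster 6 had a nuclear-encoded sum of 28219 against 10944 (2.58 times, 2.52 to 2.63) and a mitochondrial-encoded sum of 88248 against 35108 (2.51 times, 2.48 to 2.54). There 76 of 82 nuclear-encoded genes were higher and 0 lower, beside 19.8% and 28.6% of all genes, and 13 of 13 mitochondrial-encoded genes were higher. Cluster 16 against cluster 6 had a nuclear-encoded sum of 8756 against 10944 (0.8001 times, 0.771 to 0.8303) and a mitochondrial-encoded sum of 130107 against 35108 (3.71 times, 3.66 to 3.75). Here 2 of 75 nuclear-encoded genes were higher and 15 lower, beside 8.37% and 25.8% of all genes, and 13 of 13 mitochondrial-encoded genes were higher. Against cluster 6, the mitochondrial-encoded sum was thus over 1.5-fold higher in both decidual clusters and the nuclear-encoded sum in cluster 1 alone.

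Malat1 was at 48722 in cluster 1, 158808 in cluster 16, 79868 in cluster 6 and 132671 in undifferentiated cluster 5; its part in these differences was not tested. Between the Malat1-rich clusters, 16 against 5, both sums were higher on the decidual side: nuclear-encoded 8756 against 5096 (1.72 times, 1.62 to 1.82) and mitochondrial-encoded 130107 against 78080.5 (1.67 times, 1.64 to 1.69), with 30 of 46 nuclear-encoded genes higher and 2 lower beside 17.3% and 34.5% of all genes. Between the decidual clusters, 1 against 16, 78 of 81 nuclear-encoded genes were higher in cluster 1 (beside 29.8% of all genes) and 4 of 13 mitochondrial-encoded genes lower (beside 14.9%). Cluster 1 against cluster 5 had 77 of 81 nuclear-encoded genes higher and 1 lower (beside 28.9% and 32.7%), and 1 of 13 mitochondrial-encoded genes higher, with a mitochondrial-encoded sum of 88248 against 78080.5 (1.13 times, 1.11 to 1.15).

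**Figure D4:**
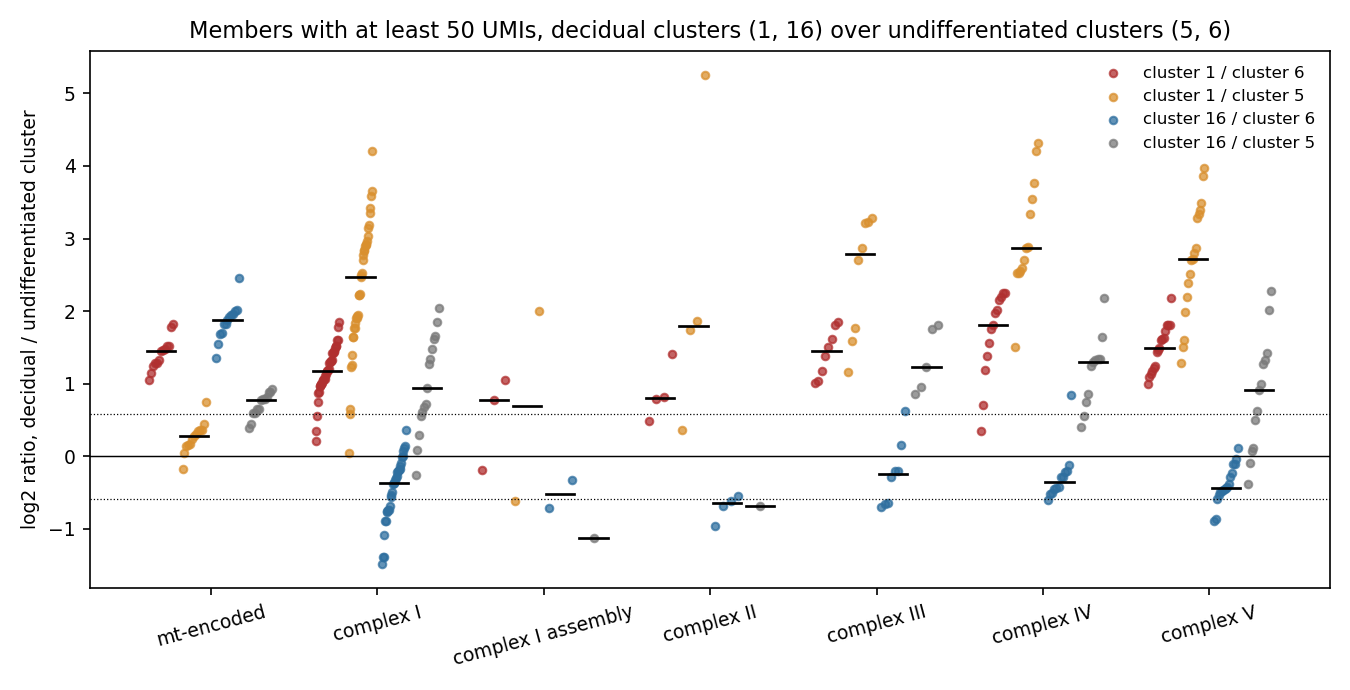
Log2 ratio (y axis) of each gene with at least 50 UMIs, by class (x axis), in 4 comparisons of a decidual with an undifferentiated stromal cluster: 1 over 6 in red, 1 over 5 in orange, 16 over 6 in blue and 16 over 5 in grey. Each point is a gene, black lines are class medians and dotted lines mark 1.5-fold; the mitochondrial-encoded medians lie above 0 in all 4 and under the 1.5-fold line for 1 over 5, while the nuclear-encoded genes lie mostly above 0 for 1 over 6 and 1 over 5 and mostly below 0 for 16 over 6.

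Complex I, the entry point for NADH electrons, had 33 of 37 subunits higher in decidual than in undifferentiated stroma, with a summed level of 6048 against 2987 (2.02 times, 1.95 to 2.101). Ndufa8, an accessory subunit, had the highest ratio, at 97.6 against 32.3 (3.03 times, 2.15 to 4.32). Ndufs4, an accessory subunit whose loss causes mitochondrial disease, was at 169.5 in decidual stroma, 56.97 in undifferentiated stroma, 118 in T cells and 42.5 in mesothelium. The decidual value was 2.29 times, 1.97 to 2.65, that of all other cells, and Ndufs4 was the complex I gene with the highest ratio of cluster 1 over cluster 6 (217 against 60.1; 3.62 times, 2.73 to 4.85). In cluster 16, 0 of 32 complex I genes were higher than in cluster 6 and 10 lower, beside 8.37% and 25.8% of all genes. Their median log2 ratio was -0.37, near the -0.33 over all genes compared. The lowest ratio was that of Ndufb4, at 38.5 against 108 (0.358 times, 0.198 to 0.605). Ndufb4, a subunit of the distal membrane arm, stood highest of all groups in mesothelium, at 280.2, with 148 in decidual stroma and 88.5 in undifferentiated stroma.

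Complex I assembly factors, which build the complex and are not part of it, gave a summed level of 239 against 219.6 (1.09 times, 0.929 to 1.28), and 1 of 4 with enough UMIs was higher in decidual stroma. Ndufaf8 was that gene, at 65.8 against 35.01 (1.88 times, 1.32 to 2.71). Ndufaf4 was at 77.95 against 106 (0.733 times, 0.565 to 0.946) and was not called. It was the 1 nuclear-encoded gene of 88 with its highest level in undifferentiated stroma: 106 there, 97.2 in B cells, 96.8 in pericytes and down to 34.8 in phagocytes. The B cell and pericyte values rest on few UMIs, from 23 and 35 cells, so undifferentiated stroma cannot be ordered against these groups. Ndufaf4 made up 1.11% of the nuclear-encoded UMIs of undifferentiated stroma and 0.217% of those of epithelium, a 5.12-fold range over the 7 groups of over 50 cells.

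Complex II, succinate dehydrogenase, also works in the citric acid cycle. Its sum was 420.0 against 279 (1.504 times, 1.32 to 1.71), with 3 of 4 genes higher. Sdhb, the iron-sulphur subunit, was at 83.3 against 32.9 (2.53 times, 1.78 to 3.62), and the membrane anchors Sdhc (101 against 65.2) and Sdhd (93.8 against 58.3) were higher as well. Sdha, the flavin-bearing subunit, was at 142 against 123 (1.15 times, 0.933 to 1.42) and was not called. Over the 10 groups Sdha lay between 113 in epithelium and 146 in mesothelium. Sdhb lay between 32.9 in undifferentiated stroma and 83.8 in NK cells, and Sdhc between 18.1 in T cells and 101 in decidual stroma.

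Complex III had 8 of 8 genes higher in decidual stroma, with a summed level of 2336 against 883 (2.65 times, 2.48 to 2.83). Uqcr10, a small accessory subunit, had the highest ratio, at 304 against 94.7 (3.21 times, 2.64 to 3.93), and Uqcrc1, a core protein, the lowest, at 68.9 against 39.8 (1.73 times, 1.23 to 2.45). Uqcrh, the hinge protein, was 1 of the 2 nuclear-encoded genes higher in cluster 16 than in cluster 6, at 472 against 307 (1.54 times, 1.28 to 1.84). Over the groups, Uqcrq, which lies beside cytochrome b, was highest in NK cells (414; 1.83 times, 1.71 to 1.95, that of all other cells) and lowest in undifferentiated stroma (107; 0.362 times, 0.307 to 0.425).

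Complex IV had 12 of 13 compared nuclear-encoded genes higher in decidual stroma and a summed level of 6797 against 2583 (2.63 times, 2.53 to 2.73). The highest ratio was that of Cox6b2, the alternative form of the Cox6b subunit, at 89.3 against 18.5 (4.82 times, 3.15 to 7.62). Ndufa4 was at 797 in decidual stroma, 711 in mesothelium, 625 in endothelium, 510.2 in epithelium and 213 in undifferentiated stroma, and within decidual stroma at 1074 in cluster 1 and 193 in cluster 16. Cox7a2l, whose protein takes part in assembling respiratory supercomplexes, had the lowest ratio, at 198 against 159 (1.24 times, 1.04 to 1.49), and was not called. Cox5a, a matrix-side subunit, was at 535 in cluster 1 and 202 in cluster 16 against 113 in cluster 6, higher in both (4.74 times, 3.89 to 5.81, and 1.79 times, 1.34 to 2.38). Cox8a, a small membrane subunit, had its lowest level in undifferentiated stroma, 231 (0.3002 times, 0.268 to 0.335, that of all other cells), and lay at 909 in NK cells and 918 in decidual stroma.

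Complex V, ATP synthase, was higher in decidual stroma for 17 of 17 genes, with a sum of 6258 against 2621 (2.39 times, 2.298 to 2.48). Atp5k, the small e subunit at the dimer interface, was at 371 against 93.3 (3.97 times, 3.28 to 4.84), and at 492 in cluster 1 and 106 in cluster 16. Atp5a1, the alpha subunit of the catalytic head, had the lowest ratio, at 446 against 260.1 (1.71 times, 1.504 to 1.95). In cluster 16, 0 of 17 complex V genes were higher than in cluster 6 and 2 lower, beside 8.37% and 25.8% of all genes. The lower genes were Atp5c1, the gamma shaft (43.3 against 80.7), and Atp5g1, a c-ring gene (55.4 against 101). Among the 7 groups of over 50 cells, the complex V sum was highest in NK cells at 6878 and lowest in undifferentiated stroma at 2621.

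Complex V held 1.33 (1.304 to 1.35) UMIs for each complex I UMI in NK cells, 1.39 (1.05 to 1.83) in B cells, 1.21 (1.05 to 1.39) in T cells and 1.198 (1.15 to 1.24) in phagocytes. The 6 other groups had 0.877 (0.8398 to 0.916) in undifferentiated stroma, 0.897 (0.849 to 0.948) in mesothelium, 1.03 (0.971 to 1.09) in endothelium, 1.03 (1.003 to 1.07) in decidual stroma, 1.07 (0.979 to 1.17) in pericytes and 1.11 (1.09 to 1.13) in epithelium. The interval of NK cells lay above those of the 6 other groups, that of phagocytes overlapped that of pericytes, and those of T and B cells overlapped those of pericytes and epithelium among others, so these cannot be ordered. At the level of clusters both ranges met: 1.06 to 1.39 in the 8 immune clusters and 0.874 to 1.16 in the 12 others with a name. As a share of the nuclear-encoded UMIs, complex V made up 33.4% (33.1 to 33.8%) in NK cells and 27.4% (26.6 to 28.1%) in undifferentiated stroma, while complex I made up 25.2% and 31.2%. Complex III held 9.22% to 10.8% in the 10 groups.

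Pericyte-like cells stood apart in their complex IV subunits. Ndufa4l2, the paralogue of Ndufa4 known from cells at low oxygen, had 96 of its 105 UMIs in these 35 cells, at 404 (327 to 494); undifferentiated stroma had 4 UMIs, epithelium 3, NK cells 2, and the other groups 0. Ndufa4 itself had 11 UMIs in pericytes, at 46.3 (0.105 times, 0.0522 to 0.187, the level of all other cells). Ndufa4l2 thus made up 89.7% (82.3 to 94.8%) of the UMIs of the pair in pericytes and 1.27% (0.347 to 3.22%) in undifferentiated stroma. In decidual stroma it had 0 of 1053 UMIs of the pair, and 0 UMIs allow a level of up to 2.27. A Ndufa4l2 UMI was seen in 27 of 35 pericytes (77.1%), or 17 of 30 (56.7%) of those thinned to 2000 UMIs per cell, and in 3 of 373 epithelium-like cells (0.804%). Median depth was 5280 UMIs in pericytes and 6444 in epithelium. Ndufa4l2 (chr10:127514967-127517154, plus strand, GENCODE annotation of GRCm38) overlaps the opposite-strand gene Shmt2 by 32 bases.

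Cox4i2, the alternative form of the regulatory subunit Cox4 that is known to respond to low oxygen, had 24 of its 30 UMIs in pericytes, at 101 (64.7 to 150.4). It made up 18.05% (11.9 to 25.6%) of Cox4i1 and Cox4i2 UMIs there, 0.317% in undifferentiated stroma, 0.218% in decidual stroma and 0 of 2505 UMIs in NK cells. A Cox4i2 UMI was found in 13 of 35 pericytes (37.1%), or 5 of 30 (16.7%) after thinning, and in 2 of 150 decidual stroma-like cells (1.33%). Cox4i1, the common form, was at 459 in pericytes, within its range of 431 to 692 over the groups. Over the 10 groups the genes whose log2 levels ran closest to Cox4i2 and to Ndufa4l2 were Notch3 (Pearson 0.998 and 0.999), Abcc9 (0.990 and 0.993) and Rgs5 (0.975 and 0.975), which are among the genes that lead the pericyte cluster. These correlations rest on the 1 group in which all of these genes are high. Against all other cells, 7 of 13 mitochondrial-encoded genes were higher in pericytes, and 3 of 88 nuclear-encoded genes higher and 12 lower, beside 14.4% and 13.1% of all genes.

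**Figure D5:**
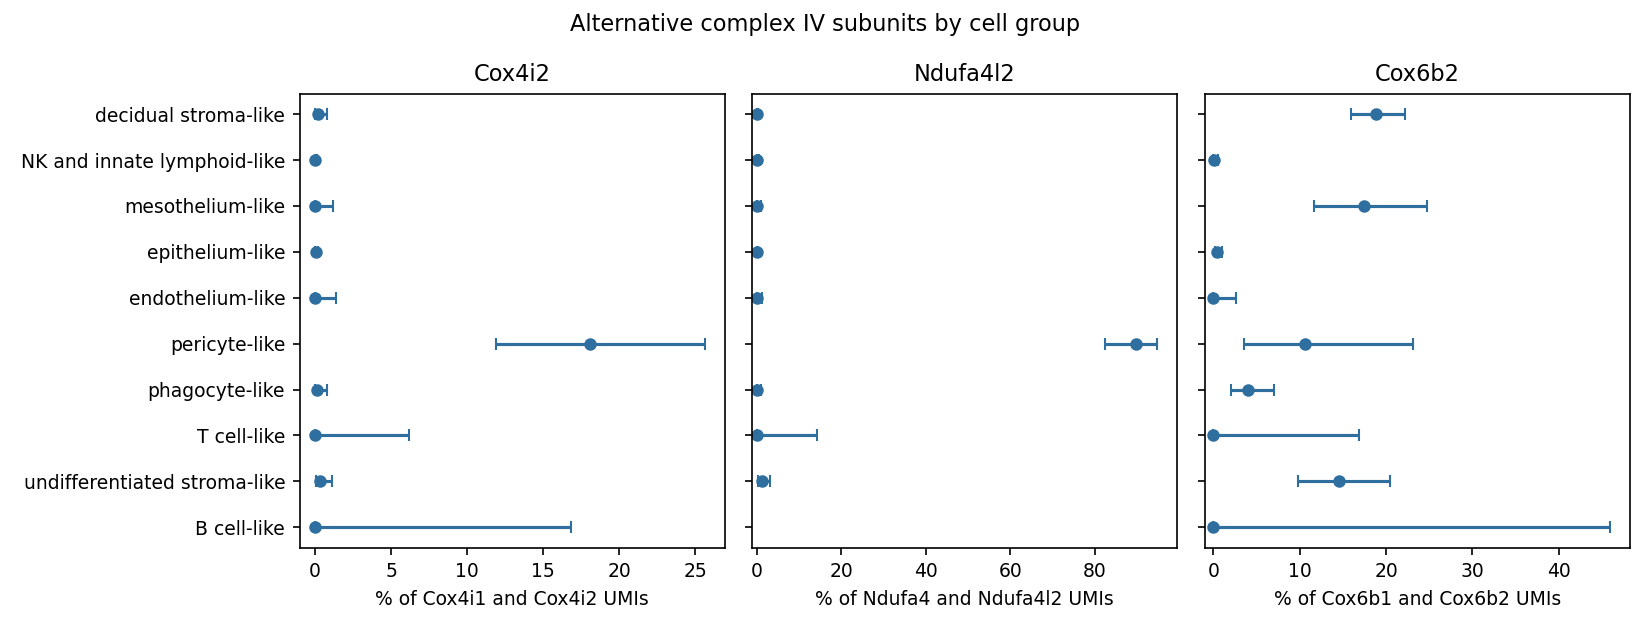
Share of an alternative complex IV subunit (Cox4i2, Ndufa4l2 or Cox6b2) among the UMIs of its pair, in percent with exact 95% binomial intervals, in the 10 named groups; B cells had no UMI of the Ndufa4 pair. Pericyte-like cells lie at 18.05% for Cox4i2 and 89.7% for Ndufa4l2, and Cox6b2 is present in decidual, mesothelial and undifferentiated stromal cells.

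Cox6b2, known as the testis form of the subunit at the complex IV dimer contact, was found mainly in stroma, mesothelium and pericytes. Decidual stroma held 118 of its 193 UMIs, at 89.3, with 53.1 in mesothelium, 21.1 in pericytes, 18.5 in undifferentiated stroma, 9.13 in phagocytes, 1.25 in epithelium and 0.273 in NK cells. Endothelium (0 of 137 UMIs of the pair), T cells and B cells had 0. As a share of Cox6b1 and Cox6b2 UMIs it was 18.9% (15.9 to 22.2%) in decidual stroma, 17.5% (11.6 to 24.7%) in mesothelium, 14.5% (9.79 to 20.4%) in undifferentiated stroma and 10.6% (3.55 to 23.1%) in pericytes, with overlapping intervals, and 0.0917% (1 of 1091 UMIs) in NK cells. The higher decidual level thus stood beside a higher Cox6b1 level (384 against 109; 3.52 times, 2.94 to 4.23). Between the decidual clusters the share was 16.6% (13.6 to 19.95%) in cluster 1 and 38.5% (26.7 to 51.4%) in cluster 16. A Cox6b2 UMI was present in 45 of 150 decidual stroma-like cells (30%; 11 of 132 (8.33%) thinned) and in 6 of 373 epithelium-like cells (1.61%; 1 of 331 (0.302%) thinned). Its neighbours Fam71e2 and Il11 had 0 and 16 UMIs in decidual stroma.

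The 250 bases upstream of both Cox6b genes are shown because the use of the pair differed so widely between groups (RefSeq, GRCm38.p6, 5′ to 3′ on the strand of the gene). Capitals mark CCGGAAG, the letters of an ETS-factor motif, read on either strand. These letters occur upstream of Cox6b1 and not upstream of Cox6b2, and neither window holds the letters of the NRF1, YY1 or hypoxia-response motifs given further on. In the GENCODE annotation Cox6b1 spans chr7:30616861-30626151, so its marked letters lie before the RefSeq start but inside the GENCODE gene. GC content was 54% and 54.8%.
Cox6b1 (chr7:30626115-30626364, minus strand): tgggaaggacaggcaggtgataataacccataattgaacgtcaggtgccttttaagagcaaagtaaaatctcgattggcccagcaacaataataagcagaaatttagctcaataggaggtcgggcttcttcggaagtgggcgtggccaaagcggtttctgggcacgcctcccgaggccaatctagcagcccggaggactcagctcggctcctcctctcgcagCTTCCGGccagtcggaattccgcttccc
Cox6b2 (chr7:4753095-4753344, minus strand): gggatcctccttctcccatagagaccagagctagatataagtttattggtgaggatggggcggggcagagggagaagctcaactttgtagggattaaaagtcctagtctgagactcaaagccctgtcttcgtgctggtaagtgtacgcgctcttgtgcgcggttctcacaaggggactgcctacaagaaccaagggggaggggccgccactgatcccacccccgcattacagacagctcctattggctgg

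The muscle-type forms were rare. Cox6a2 had 39 UMIs, 21 of them in NK cells and 17 in phagocytes. Within the phagocyte group, 15 lay in 3 of 9 cells of cluster 4, led by Siglech and Ccr9, where Cox6a2 made up 83.3% (58.6 to 96.4%) of Cox6a1 and Cox6a2 UMIs. Cluster 4 fell only narrowly to the phagocyte list, with a mean log2 difference from the median cluster of 2.44 for phagocyte and 2.11 for B cell markers. Cox6a2 had 0 of 191 UMIs of its pair in undifferentiated stroma, 0 of 1017 in epithelium and 0 of 449 in decidual stroma. All 953 bases of Cox6a2 lie within the opposite-strand gene Itgad, which had 28 UMIs in the kept cells. Cox7a1 had 29 UMIs, at most 12.6 (pericytes, 3 UMIs), and Cox8b had 1. Cox7a2l held 22.7% (21.04 to 24.4%) of the UMIs of its family in NK cells, 33.9% (30.6 to 37.4%) in decidual and 56.7% (51.8 to 61.6%) in undifferentiated stroma.

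ATP synthase has 3 nuclear genes, Atp5g1, Atp5g2 and Atp5g3, that encode the same mature c-ring subunit. Atp5g1 held 27.1% (25.9 to 28.4%) of their UMIs in epithelium, 21.8% in NK cells, 21.8% in decidual stroma, 17.1% (14.4 to 20.03%) in undifferentiated stroma and 14.7% (11.5 to 18.4%) in endothelium. Atp5g2 held 41.5% (39.1 to 44.02%) in decidual stroma and 54.4% (51.1 to 57.6%) in phagocytes, and Atp5g3 27.9% in epithelium and 39.8% (35.2 to 44.6%) in mesothelium. Atp5g1 also had the highest complex V ratio of decidual cluster 1 over cluster 16, at 355 against 55.4 (6.42 times, 4.205 to 10.3).

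NK and innate lymphoid-like cells formed clusters of very different depth. Cluster 7 (145 cells, median 18555 UMIs, led by the granzymes Gzmd, Gzmf and Gzme) had a nuclear-encoded sum of 22327, and cluster 2 (169 cells, median 3904 UMIs, led by Ifng and Cd7) one of 12756 (1.75 times, 1.71 to 1.79). The pooled mitochondrial-encoded sum was 39672 against 44961 (0.882 times, 0.871 to 0.894), but its direction turned as a mean over cells, 66468 against 63649. 61 of 83 nuclear-encoded genes were higher in the granzyme-rich cluster and 1 lower, beside 23.7% and 24% of all genes, and 0 of 13 mitochondrial-encoded genes were called. Among those higher were Atp5g1 (316 against 77.6; 4.08 times, 3.08 to 5.502), the complex IV gene Cox5b (471 against 118; 3.998 times, 3.19 to 5.08) and the complex III gene Uqcr11 (355 against 101; 3.49 times, 2.73 to 4.53). The lower gene was Cox7a2l (134 against 210.3; 0.639 times, 0.526 to 0.779). Malat1 was at 9691 in cluster 7 and 34162 in cluster 2, and ribosomal protein genes at 245113 and 195201; the part of these and of depth in the difference was not tested.

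Each group was also set against all other cells. In NK cells 10 of 88 nuclear-encoded genes were higher and 3 lower (beside 19.8% and 41.2% of all genes); the higher ones included the stalk subunit Atp5f1 at 472 (2.02 times, 1.896 to 2.15), Cox7a2 at 505 (1.796 times, 1.69 to 1.904) and Ndufb7 at 224 (1.65 times, 1.51 to 1.797). Undifferentiated stroma had 65 of 88 lower and 1, Ndufaf4, higher (beside 30.7% and 29.4%). Decidual stroma had 18 higher and 1, Ndufa4l2, lower (beside 16.2% and 29.7%), and 13 of 13 mitochondrial-encoded genes higher. The Ndufa4l2 call rests on the pericytes among the other cells, with 96 of its 105 UMIs. Outside pericytes no group had more than 4 UMIs of it, so the call is not a trait of decidual stroma. The decidual genes included Atp5k at 371 (2.29 times, 2.07 to 2.53), Ndufs4 and Uqcr11 at 469 (1.54 times, 1.41 to 1.68). In phagocytes 20 nuclear-encoded genes were lower and 1 higher (beside 38.9% and 14.7%), with Sdhc at 34.01 (0.431 times, 0.307 to 0.589) and the assembly factor Ndufaf3 at 24.1 (1.67 times, 1.09 to 2.47), and 10 of 13 mitochondrial-encoded genes were lower.

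Epithelium had 4 of 88 nuclear-encoded genes higher and 7 lower (beside 16.3% and 39.4% of all genes), the higher ones being Cox7b at 351 (1.78 times, 1.67 to 1.905), Ndufa6 at 278 (1.64 times, 1.52 to 1.77), Ndufa7 at 264 and Ndufa12 at 100.3. Epithelial cluster 8 (68 cells) held Cox7b at 49, against 281 to 434 in the other epithelial clusters, and mt-Co1 at 49090.1, against 8867 to 14787. Mesothelium had 7 higher and 4 lower (beside 19.7% and 20.1%), with Ndufb4 (2.74 times, 2.28 to 3.28) and Cox6b2 (4.24 times, 2.67 to 6.47) the furthest from other cells, and 5 of 13 mitochondrial-encoded genes lower. Endothelium had 2 higher, Ndufa8 at 139 (1.63 times, 1.26 to 2.08) and the core subunit Ndufs1 at 92.98, and 8 lower (beside 19.8% and 18%). T cells had 26 of 88 lower and 0 higher (beside 8.59% and 9.26%), and B cells 22 lower and 0 higher (beside 3.85% and 7.23%), on 1374 and 377 nuclear-encoded UMIs.

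Other mitochondrial genes were read from lists in the same stromal comparison, again beside 16.6% of all genes higher and 29.2% lower. The citric acid cycle list had 9 of 13 genes higher and 0 lower in decidual stroma, Suclg2, a succinate-CoA ligase subunit, the most (59.03 against 24.02; 2.46 times, 1.63 to 3.77). Of the electron carriers and other subunits 8 of 11 were higher, among them cytochrome c (Cycs, 151 against 45.99; 3.27 times, 2.47 to 4.39), and 1 was lower, Etfdh (31.03 against 48.05; 0.646 times, 0.428 to 0.963). Assembly genes outside the symbol rule had 8 of 18 higher and 1 lower, with Uqcc2 at 135 against 44.6 and Timmdc1 at 15.1 against 36.4. The mitochondrial ribosome had 30 of 71 higher and 1 lower, the mitochondrial antioxidants 3 of 5 higher and 0 lower, and the cytoplasmic ribosome 21 of 79 higher and 0 lower. Mitochondrial transcription and replication had 1 of 10 higher and 0 lower; the higher gene was Slirp, which binds mitochondrial messages (68.1 against 28.8; 2.36 times, 1.62 to 3.49), and Tfam, which packages mitochondrial DNA, was at 21.9 against 26.8 and was not called.

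Of the regulators of mitochondrial biogenesis 1 of 7 was higher and 3 lower in decidual stroma. Ppargc1b, a co-activator of mitochondrial genes, was higher with 53 UMIs against 11 (40.1 against 7.55 in level; 5.31 times, 2.74 to 11.3), and in cluster 1 against cluster 6 with 50 against 6 (10.3 times, 4.397 to 29.3). Its relative Ppargc1a had 0 UMIs in decidual and 1 in undifferentiated stroma. Nrf1, a transcription factor for respiratory subunits, was lower (21.9 against 72.1; 0.305 times, 0.195 to 0.463), as were the ETS-family factor Gabpa (47.7 against 87.2; 0.547 times, 0.398 to 0.746) and Myc (40.1 against 94.7; 0.423 times, 0.302 to 0.585). In cluster 1 against cluster 6 Nrf1 (0.233 times), Gabpa (0.577 times) and Myc (0.459 times) were lower too.

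Upstream sequences were matched for 75 of the 94 nuclear-encoded genes (RefSeq, GRCm38.p6). Cox4i1, Cox4i2, Ndufa4l2 and Cox6a2 had no match, so the search did not cover them. Letters of 4 motifs were searched on both strands in the 250 bases before the RefSeq start. That start can lie inside the gene as annotated by GENCODE, as for Atp5g2 (GENCODE chr15:102662864-102672352). NRF1 letters (GCATGCGC) were found upstream of 9 of the 75 (12%) and of 2.32% of 27025 promoters, and ETS letters (CCGGAAG) of 17.3% and 7.05%. YY1 letters (ATGGCGG) were found upstream of 5.33% and 2.19%, and hypoxia-response letters (ACGTG) of 18.7% and 16.6%. The 9 genes with the NRF1 letters were Atp5g2, Atp5k, Atp5l, Cox6a1, Ndufa11, Ndufa6, Ndufa8, Ndufaf4 and Sdhb. Atp5g2 and Atp5l are shown as those of the 9 with the most UMIs. Capitals mark every match to the 4 motifs, and matches can overlap one another. A match is a run of letters and not a measured binding site.
Atp5g2 (chr15:102671048-102671297, minus strand): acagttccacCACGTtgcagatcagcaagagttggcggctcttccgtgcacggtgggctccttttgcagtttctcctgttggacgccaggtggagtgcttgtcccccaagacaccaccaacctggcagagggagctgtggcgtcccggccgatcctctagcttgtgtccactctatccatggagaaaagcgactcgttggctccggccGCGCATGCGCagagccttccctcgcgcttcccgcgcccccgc
Atp5l (chr9:44920743-44920992, minus strand): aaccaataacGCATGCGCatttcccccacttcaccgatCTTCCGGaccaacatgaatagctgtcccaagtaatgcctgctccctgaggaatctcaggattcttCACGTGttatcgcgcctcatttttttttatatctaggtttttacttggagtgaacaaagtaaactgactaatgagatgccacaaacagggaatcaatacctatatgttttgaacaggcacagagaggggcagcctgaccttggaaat

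Within groups, cells with more mitochondrial-encoded transcripts had fewer nuclear-encoded ones. Spearman's rho over cells was -0.62 in undifferentiated stroma (416 cells), -0.76 in epithelium (373), -0.54 in NK cells (314), -0.52 in phagocytes (270), -0.58 in decidual stroma (150), -0.37 in mesothelium (88) and -0.45 in endothelium (66). In cells thinned to 2000 UMIs it ran from -0.17 (mesothelium) to -0.75 (epithelium). The nuclear-encoded level also went down with Malat1 (rho -0.63 to -0.83) and up with the ribosomal protein level (0.74 to 0.85) in all 7 groups. These levels share the denominator of a cell, and the part of depth and RNA content was not tested. The quartiles of the per-cell nuclear-encoded level were 5205 and 21627 in decidual stroma and 4626 and 11018 in undifferentiated stroma, so single cells of both groups overlapped widely.

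By pattern over the 10 groups, the summed mitochondrial-encoded level ran closest to Sh3pxd2a (Pearson 0.83), Flot1 (0.81) and Mt3 (0.81), and the summed nuclear-encoded level to Kmt5a (0.94), Ppp1r14b (0.93) and Psmb6 (0.92). Cox7a1 ran closest to Socs1 (0.86), Fabp5 (0.83) and Glipr2 (0.83), on 29 UMIs. With 10 points from 1 library and many genes searched, these names describe this library.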

How the data were processed

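Whole-uterus cells of 1 library were analysed. The authors deposited whole-number UMI counts per gene and cell barcode, a matrix written by Cell Ranger (version 4.0.0) according to its header lines, that is, per the file headers. Their genome build is mm10 (per the submitters' processing notes). Not given in the sources used here are the annotation release, the cell-calling settings and the treatment of reads that match several loci, such as pseudogenes. From these counts, barcodes with at least 500 genes and at most 20% mitochondrial UMIs were kept, and Scrublet in scanpy 1.11.5 (expected rate 5%) marked 12 of 1825 as doublets (0.658%), which were removed. Cells were clustered (Leiden, resolution 1, 2000 variable genes, 30 components, 15 neighbours, seed 0) on values scaled to 10000 UMIs, with the 107 genes and all mitochondrial genes left out. Clusters were named from 148 markers in 17 sets. Rebuilt names may differ from the authors' own.

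Summed counts per group gave levels with exact Poisson intervals, ratios with exact conditional binomial intervals and shares with Clopper-Pearson intervals. The ratio intervals and the size rule were checked on simulated Poisson counts, which hold no added spread between cells. The simulation did not cover the intervals of levels and shares. With 1 exception, which is not reported here, the genes named are the mitochondrial-encoded genes, the Sdh genes, the alternative subunits and, in each comparison, the highest and lowest ratio of each class among genes with at least 50 UMIs; Ndufa7 and Ndufa12 in epithelium, Ndufs1 in endothelium and the genes listed for NRF1 letters were named after their values were seen. Nearest patterns used log2(level + 10) of genes with at least 200 UMIs. The 107 genes and all lists were chosen with earlier results of these data known. Alternatives changed the mitochondrial limit, clustering, scaling, call size and UMI minimum. Python 3.11.15, numpy 2.4.6, scipy 1.17.1 and pandas 2.3.3 were used.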

Additional observations from a re-analysis of the deposited data

Results flagged for a closer look

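Barcodes outside every comparison also carried the genes. The 557 barcodes with at least 500 genes and over 20% mitochondrial UMIs (median 3001 UMIs) held the mitochondrial-encoded genes at 381461 per 1000000 nuclear-gene UMIs, a value raised by how they were selected, the nuclear-encoded genes at 6644 and Malat1 at 100132. The 393 barcodes with under 500 genes (median 654 UMIs) held the nuclear-encoded genes at 9501, within the range of the named groups, and the mitochondrial-encoded genes at 336463, with Malat1 at 49189. Both are listed because these barcodes enter no comparison and their levels are above 0; there is no control sample to set them against, so this does not show that either differs from the cells kept.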

How the results depend on the processing

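No paired analysis was possible because there is 1 library with no replicate, and for the same reason no replicate could be left out. Of the results that answer a comparison, recomputed under each alternative, 252 values kept their size class, 18 moved, 19 passed the 1.5-fold size only in the alternative, 3 no longer passed it and none turned from a call to the other direction; 15 summed ratios that passed the size in neither setting lay on the other side of 1, at 0.721 to 1.16; where no value below shows it, the cause was not tested. The highest over lowest group, 2.803 for the mitochondrial-encoded sum, was 2.83 at a clustering resolution of 2, 2.03 with at most 10% mitochondrial UMIs, 4.598 with no such limit, 4.52 with median-of-ratios size factors, 2.64 scaled to all UMIs, 2.77 scaled without ribosomal protein genes and 2.51 without clusters 5, 8 and 16, a choice made after seeing the data. For the nuclear-encoded sum, 2.41 became 2.01 as a mean over cells, where mesothelium and not decidual stroma was highest, 3.49 with size factors and 3.08 without those clusters. Against all other cells, the mitochondrial-encoded ratio passed 1.5-fold in these cases. With no limit it was 0.618 in NK cells, 0.619 in T cells, 0.591 in endothelium, 0.496 in mesothelium, 0.459 in phagocytes and 0.538 in undifferentiated stroma. With size factors it was 0.639 in NK cells, 0.649 in endothelium, 0.591 in mesothelium, 0.642 in phagocytes and 0.654 in undifferentiated stroma. It was 0.639 in mesothelium as a mean over cells, 0.6602 and 0.659 in mesothelium and phagocytes without ribosomal protein genes, 0.649 in phagocytes at resolution 2, and 1.59 in pericytes without clusters 5, 8 and 16. The nuclear-encoded ratio passed it at 0.542 in T cells and 0.662 in pericytes with size factors and at 1.59 in decidual stroma without those clusters; it missed it at 0.714 in B cells as a mean over cells. With a 2-fold size the ratios of B cells (0.518) and undifferentiated stroma (0.514) fell short. The counts of nuclear-encoded genes called higher or lower in a group against all other cells were tallied apart. Of these counts, recomputed under each alternative, 129 stayed within 1.5-fold of the value given above and 71 did not. Decidual against undifferentiated stroma kept its direction throughout: the nuclear-encoded ratio ran from 1.75 to 2.58, the mitochondrial-encoded one from 1.55 to 3.91, and the nuclear-encoded genes called higher from 50 to 76. 8 mitochondrial-encoded genes were higher with at most 10% mitochondrial UMIs. The share of all genes called was not tallied under the alternatives, so these counts have no background beside them. Spearman's rho over cells was -0.68 in NK cells, -0.29 in decidual stroma and -0.67 in epithelium with no limit, and -0.37, -0.45, -0.30 and -0.47 in NK cells, decidual stroma, phagocytes and undifferentiated stroma after thinning. Depth limits single genes in the B, T and pericyte groups, which hold 377, 1374 and 3668 nuclear-encoded UMIs.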
